A study of Mus musculus with 22 samples.

Results

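The 35 genes described here carry out glycolysis or respond to low oxygen. They were taken as a named list: 4 transporters of glucose and lactate, 9 enzymes of the upper and 6 of the lower part of glycolysis, 2 lactate dehydrogenase subunits, 4 regulatory kinases, 4 oxygen sensing factors and 6 targets of the hypoxia response. Their 200 transcripts were summed per gene, out of 62492 transcripts and 17023 genes measured in 22 samples. All 35 were present in the table. The list was drawn up without a threshold on any measured value, but with earlier results of these data known.

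The samples came from TCL1-355 TKO cells, a leukemia line established from the Eμ-TCL1 transgenic mouse, a model of chronic lymphocytic leukemia in which an immunoglobulin enhancer drives TCL1 in B cells. All 6 groups therefore share the TCL1 transgene, and all share the loss of both alleles of CDKN2A and of CDKN2B that was introduced into the line. In NFKBIE-ko cells the gene for IκBε, an inhibitor of NF-κB, had been disrupted with Cas9 ribonucleoprotein, and NFKBIE-wt cells had gone through mock editing. Each genotype was propagated in C57BL/6 mice and injected into the peritoneal cavity (PC) of 5 recipients aged 2 to 3 months, and cells were collected after 10 days from the spleen (4 samples per genotype) and from the PC (4 samples per genotype). Cells from spleens of separate mice were also cultured for 2 weeks (in vitro, 3 samples per genotype). The cells were not purified, so host cells remained in the spleen and PC samples, and it is not stated which spleen and PC samples came from the same mouse. In such bulk samples fewer cells of a type and less RNA per cell cannot be told apart.

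Glycolysis converts glucose to pyruvate in the cytoplasm, and lactate dehydrogenase turns pyruvate into lactate, which leaves the cell through monocarboxylate transporters. When oxygen falls, the prolyl hydroxylases that mark the HIF alpha subunits for degradation slow down, and HIF then binds a short motif, RCGTG, near genes for glucose uptake, glycolytic enzymes, mitophagy and vessel growth. Activated B cells and many leukemias run glycolysis at a high rate also in the presence of oxygen.

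Per sample the estimated counts summed to between 24036763 and 26581304. A library labelled NFKBIE-wt spleen replicate 4 stood apart: across 11550 genes its log2 levels correlated with NFKBIE-wt in vitro replicates 1 and 2 at r of 0.978 to 0.988 and with the other NFKBIE-wt spleens at 0.926 to 0.95. NFKBIE-wt in vitro replicate 3 showed the opposite, with r of 0.975 to 0.987 to NFKBIE-wt spleens 1 to 3 and of 0.919 to 0.938 to the other NFKBIE-wt cultures. Erythroid markers summed to 6.89 CPM (counts scaled to the library size) in the former against 288 to 2052 in the other NFKBIE-wt spleens, and to 1462 CPM in the latter against 12 to 20.7 in the other NFKBIE-wt cultures. Both were kept under their labels, and the comparisons that use them are also given without them. Between compartments, a value without either of them comes from a fit that leaves out both. The targeted transcript checks the labels only in part: Nfkbie lay at 47.2 to 64.9 CPM in NFKBIE-ko PC and at 67.3 to 91.2 CPM in NFKBIE-wt PC, but the genotypes overlapped in the spleen (54.2 to 120 CPM in NFKBIE-ko and 70.9 to 124 in NFKBIE-wt), and a small edit need not lower the RNA. The summed B-cell markers were between 2784 and 9591 CPM in every sample.

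Compared per transcript length, in TPM, the members spanned more than 4 orders of magnitude. Gapdh, the enzyme that reduces NAD+ in glycolysis, had the highest mean level over the 22 samples (3574 TPM, range 2225 to 4985), followed by Ldha (1296 TPM), which makes lactate, by the aldolase Aldoa (1097 TPM) and by the pyruvate kinase Pkm (1041 TPM). The ranges of Ldha (735 to 1787 TPM), Aldoa (496 to 1905 TPM) and Pkm (547 to 1923 TPM) overlapped widely, so these neighbours in the order were not separated. Ddit4, an inhibitor of mTORC1 that is induced by stress and low oxygen, was the most abundant hypoxia target (301 TPM, range 47.6 to 737). The second lactate dehydrogenase gene, Ldhb, was at the bottom of the order (0.145 TPM) with 72 counts in all 22 samples together, and no fold is given for it. Every transcript of the deposited counts was above 0 in at least 5 samples. They held 1 of 33 annotated transcripts of Ldhb and 1 of 8 of Epas1, so the levels of these genes cover those transcripts only. The HIF alpha subunit Hif1a averaged 28.4 TPM and its paralog Epas1 0.706 TPM. All members together made up a median of 0.787% of the counts in NFKBIE-wt spleen, 0.929% in NFKBIE-wt PC and 1.02% in NFKBIE-wt in vitro, and of 1.08%, 1.32% and 1.43% in the corresponding NFKBIE-ko groups.

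**Figure D1:**
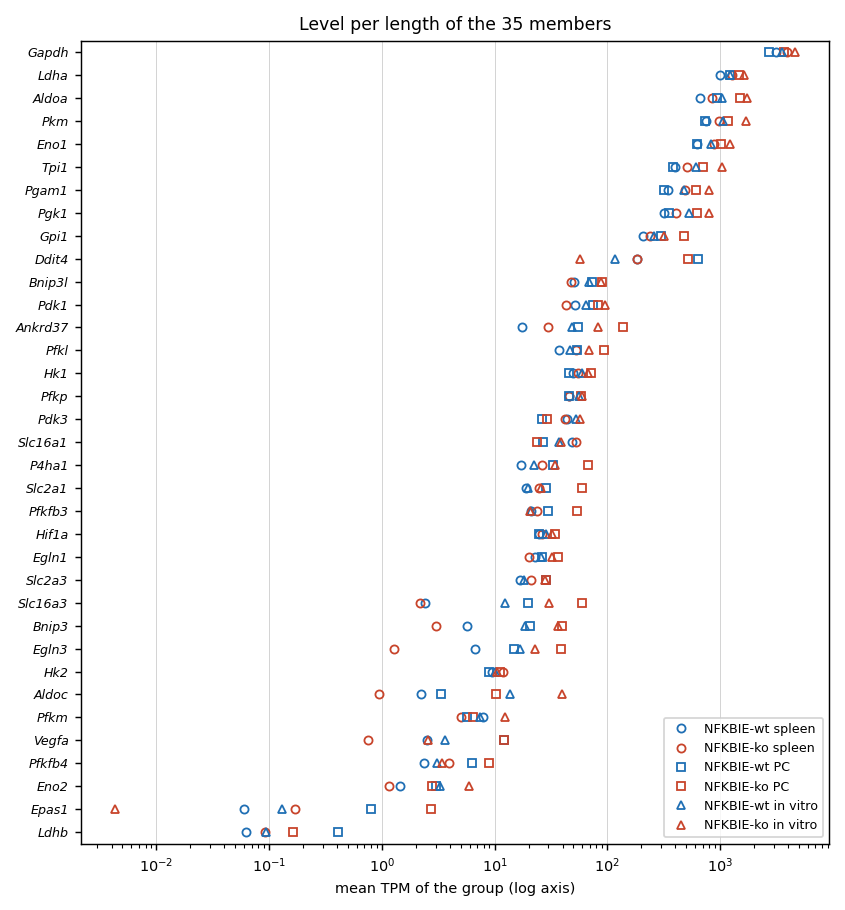
Mean level of each member per group in TPM on a log axis, with squares for PC, circles for spleen and triangles for in vitro, in blue for NFKBIE-wt and red for NFKBIE-ko. Most glycolytic enzymes lie near each other in all 6 groups, whereas Slc16a3, Aldoc, Egln3, Bnip3 and Vegfa spread widely, and a group at 0 (Ldhb in NFKBIE-ko in vitro) is not drawn.

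The sequences that tell the forms of pyruvate kinase apart are shown first. Pkm transcripts carry one of a pair of mutually exclusive exons, M1 of adult muscle and brain and M2 of proliferating cells. Both exons are 167 bases long and lie on the plus strand of GRCm39, M1 at chr9:59582312-59582478 and M2 at chr9:59582851-59583017. They differ at 64 positions (61.7% identity), which are in capitals below, so that reads from this coding exon assign the transcript.
M1: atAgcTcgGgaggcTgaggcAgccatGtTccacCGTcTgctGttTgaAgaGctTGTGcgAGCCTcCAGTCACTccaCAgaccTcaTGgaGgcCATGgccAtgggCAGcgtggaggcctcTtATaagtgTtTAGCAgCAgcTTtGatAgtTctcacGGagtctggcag
M2: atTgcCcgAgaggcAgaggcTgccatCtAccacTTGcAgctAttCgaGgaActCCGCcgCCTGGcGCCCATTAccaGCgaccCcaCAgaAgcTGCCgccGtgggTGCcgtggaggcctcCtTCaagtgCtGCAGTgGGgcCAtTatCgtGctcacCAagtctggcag

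The transcript with the M2 exon held 97.2% to 99.6% of the counts of both forms in every sample. It made up 98.3%, 98.4%, 98.5% and 98.3% in NFKBIE-wt PC and 97.9%, 97.6%, 97.2% and 97.3% in NFKBIE-ko PC. The 2 groups of PC samples did not overlap, with M1 counts of 353 to 436 and 808 to 1129, and the difference was not tested.

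The genotypes were first compared within the PC. Of the 34 members tested, 25 were higher in NFKBIE-ko than in NFKBIE-wt PC (22.5% of all genes tested were higher) and 1 was lower (20.9% of all genes), by the quasi-likelihood test of edgeR with p adjusted after Benjamini and Hochberg over all genes. The median log2 fold change was 0.65 over the members and -0.01 over all 12642 genes tested. In 26 of the 35 members all 4 NFKBIE-ko samples lay above all 4 NFKBIE-wt samples (22.1% of all genes), and in 1 all lay below (19.4%). With a log2 fold change beyond 1 as well, the limit used by the study, 6 members were higher (9.97%) and 0 lower (3.50%). No library that stood apart belongs to the PC.

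**Figure D2:**
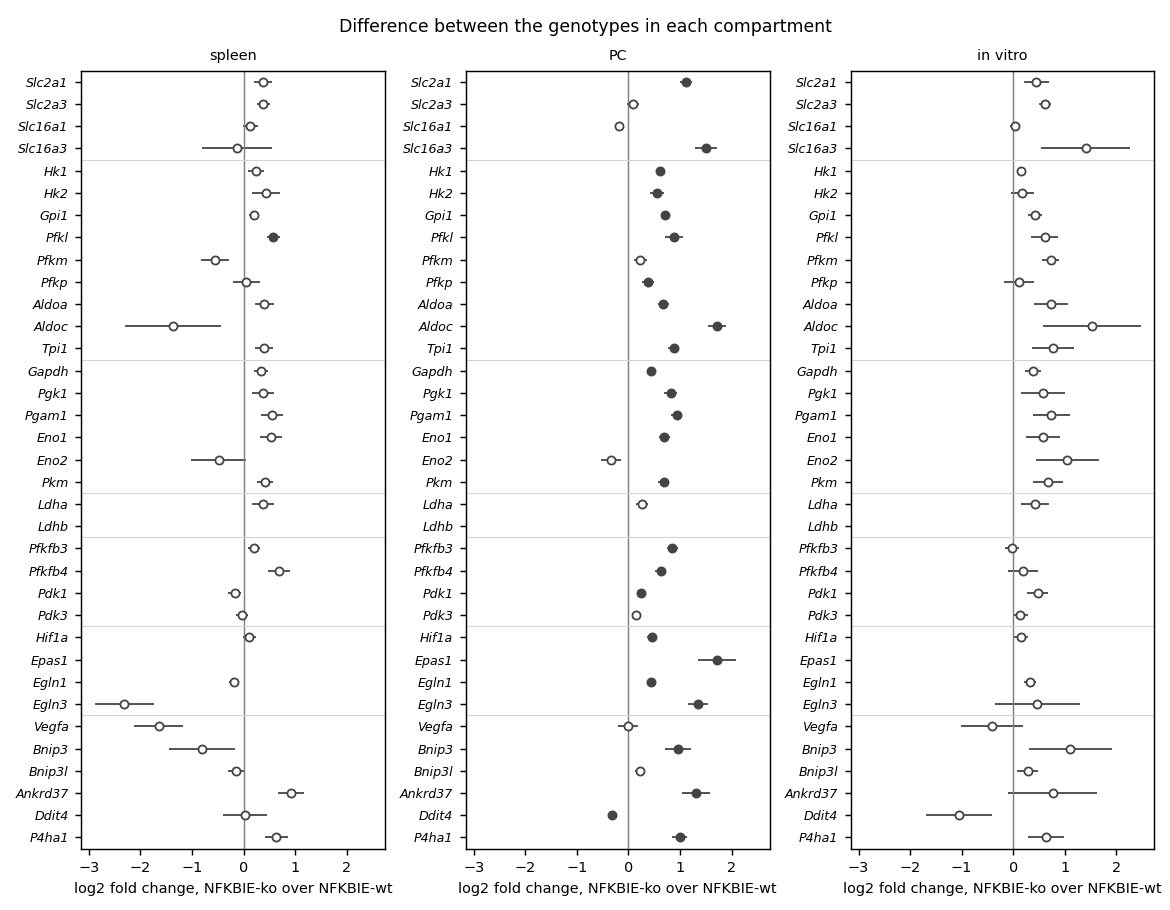
Log2 fold change of NFKBIE-ko against NFKBIE-wt for each member in the spleen, the PC and in vitro, with bars of 1 standard error and filled points where the adjusted p was below 0.05. The points of the PC are mostly filled and right of 0, while those of the spleen and in vitro are mostly open with wide bars, and Ldhb is not drawn.

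Of the 4 transporters, Slc2a1 and Slc16a3 were higher in NFKBIE-ko PC. Slc2a1 (GLUT1, the basal glucose importer) was at 39.2, 49.4, 58.7 and 52.7 CPM in the NFKBIE-wt and 106, 122, 108 and 100 CPM in the NFKBIE-ko samples. The lowest NFKBIE-ko sample was thus well above the highest NFKBIE-wt sample (log2 fold change 1.11, with a standard error, SE, of 0.11, adjusted p = 2.88e-05). Not all of these counts are protein coding. ENSMUST00000174372, annotated for nonsense-mediated decay, held a median of 45.4% of the Slc2a1 counts in NFKBIE-wt PC and 41.3% in NFKBIE-ko PC. Slc16a3 (MCT4, the lactate exporter of glycolytic cells) was at 30.2, 27.1, 46.5 and 49.9 CPM in NFKBIE-wt and at 89.1, 135, 115 and 100 CPM in NFKBIE-ko. It had one of the largest differences among the members (1.50, SE 0.22, adjusted p = 0.000703) and again no overlap. The neuronal-type glucose transporter Slc2a3 (log2 fold change 0.09, adjusted p = 0.596) and the lactate transporter Slc16a1 (-0.18, adjusted p = 0.133) did not pass the test.

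Of the 9 enzymes of the upper part of the pathway 8 were higher. Aldoc, an aldolase isoform, was at 3.03, 3.46, 3.86 and 3.72 CPM in NFKBIE-wt PC and at 10, 14.3, 13.4 and 9.18 CPM in NFKBIE-ko PC. Its log2 fold change of 1.72 (SE 0.17, adjusted p = 2.67e-05) was the largest of the members, though from a low level. Hk2, a hexokinase that traps glucose in the cell, was at 24.6, 29.8, 33.4 and 27.9 CPM in NFKBIE-wt and at 45.2, 53.4, 38.2 and 34.5 CPM in NFKBIE-ko. Its groups came close at 33.4 and 34.5 CPM without overlapping (0.55, SE 0.14, adjusted p = 0.00746). Hk1 (0.61), Gpi1 (0.72), Pfkl (0.88), Pfkp (0.38), Aldoa (0.67) and Tpi1 (0.88) were also higher, with adjusted p between 4.42e-05 and 0.0273, and the muscle phosphofructokinase Pfkm was not called (0.23, adjusted p = 0.146).

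Of the 6 enzymes of the lower part 5 were higher. Pgk1, which makes the first ATP of the pathway, was at 333, 325, 403 and 450 CPM in NFKBIE-wt and 602, 808, 678 and 606 CPM in NFKBIE-ko PC. All NFKBIE-ko samples exceeded the highest NFKBIE-wt sample (0.82, SE 0.13, adjusted p = 0.000508). Pkm, which makes pyruvate, was at 872, 908, 1191 and 1100 CPM in NFKBIE-wt and 1523, 1875, 1678 and 1513 CPM in NFKBIE-ko, with a difference of similar size (0.68, SE 0.11, adjusted p = 0.00075). Gapdh (0.45), Pgam1 (0.94) and Eno1 (0.70) were higher too, and the enolase Eno2 was not called (-0.34, adjusted p = 0.193).

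Ldha was the abundant enzyme with the smallest difference. Its levels were 1031, 950, 1213 and 1344 CPM in NFKBIE-wt and 1228, 1565, 1360 and 1354 CPM in NFKBIE-ko PC. The groups overlapped, and the log2 fold change of 0.27 (SE 0.12) did not pass the test with an adjusted p = 0.0912.

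The regulatory kinases of the list set the level of fructose 2,6-bisphosphate, an activator of phosphofructokinase (Pfkfb3, Pfkfb4), or inhibit pyruvate dehydrogenase (Pdk1, Pdk3), and 3 of the 4 were higher. Pfkfb3 was at 68.1, 74.6, 88.8 and 77 CPM in NFKBIE-wt and 136, 167, 140 and 119 CPM in NFKBIE-ko PC (0.85, SE 0.11, adjusted p = 0.000121). Pfkfb4 (0.63, adjusted p = 0.000692) and Pdk1 (0.24, adjusted p = 0.0121) differed by less, and Pdk3 was not called (0.14, adjusted p = 0.103).

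All 4 oxygen sensing factors were higher in NFKBIE-ko PC. Hif1a was at 90.4, 105, 103 and 82.7 CPM in NFKBIE-wt and 147, 135, 122 and 124 CPM in NFKBIE-ko. The difference was small but larger than the spread of the replicates (0.46, SE 0.09, adjusted p = 0.00204). Epas1 (HIF-2α, best known from endothelial cells and macrophages) was at 3.48, 0.994, 2.5 and 3.77 CPM against 10.3, 10.8, 5.52 and 8.9 CPM, a log2 fold change of 1.71 (SE 0.37, adjusted p = 0.00445). Egln3 (PHD3, a prolyl hydroxylase that is itself a HIF target) was at 16.7, 19.2, 30.9 and 27.8 CPM against 58.5, 73.2, 61.3 and 49.8 CPM, also without overlap (1.35, SE 0.20, adjusted p = 0.00062). Egln1 (PHD2, the main oxygen sensor of the HIF pathway) was higher by 0.45 (adjusted p = 0.00123).

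The 6 hypoxia targets were split, with 3 higher, 1 lower and 2 not called. Bnip3, a mitophagy receptor, was at 31.5, 26, 54.7 and 55.9 CPM in NFKBIE-wt and 73.7, 99.8, 82.5 and 73.6 CPM in NFKBIE-ko PC. The NFKBIE-wt samples formed a low and a high pair, both below all NFKBIE-ko samples (0.96, SE 0.26, adjusted p = 0.0165). Vegfa, the vascular growth factor, was at 13.2, 22.6, 25.1 and 25.6 CPM against 23.6, 23.2, 23.3 and 16.7 CPM and lay within the range of NFKBIE-wt (log2 fold change -0.004, SE 0.20, adjusted p = 0.989). Ddit4, described since it was the only lower member, was at 732, 611, 704 and 587 CPM in NFKBIE-wt and 517, 555, 502 and 563 CPM in NFKBIE-ko (-0.32, SE 0.09, adjusted p = 0.0143). Ankrd37 (1.31) and the collagen prolyl hydroxylase P4ha1 (0.99) were higher, and the mitophagy receptor Bnip3l was not called (0.22, adjusted p = 0.0716).

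Further genes of the pathway were taken as lists from textbook knowledge, also with earlier results of these data known. Their counts are therefore not independent of these data. Among 26 other hypoxia targets tested in the PC, 14 were higher and 1 was lower in NFKBIE-ko, where 22.5% and 20.9% of all genes were. The circadian repressor Bhlhe40 had medians of 46.7 CPM in NFKBIE-wt and 112 CPM in NFKBIE-ko (1.41, adjusted p = 4.18e-05), and the glycogen branching enzyme Gbe1 3.72 and 15 CPM (2.17, adjusted p = 0.000129). Cited2, which competes with HIF for a coactivator, was the one lower, at medians of 231 and 63 CPM (-1.72, adjusted p = 0.000128).

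Other glycolysis genes were higher in 5 of 11, among them the enolase Eno3 (medians 31 and 72.2 CPM, 1.25) and the glucose transporter Slc2a6 (medians 5.5 and 17.1 CPM, 1.59). In the pentose phosphate pathway, which branches off glucose 6-phosphate, 4 of 7 were higher and 1 was lower, with G6pdx, its entry enzyme, at medians of 55.5 and 79.5 CPM (0.57, adjusted p = 9.68e-05). Of 10 genes of pyruvate dehydrogenase and pyruvate import, 1 was higher (Dlat, 0.27) and 1 lower (Mpc1, a subunit of the mitochondrial pyruvate carrier, medians 83.6 and 57.6 CPM, -0.57). The oxygen sensing machinery had 1 higher (Cul2, a scaffold of the VHL ubiquitin ligase, 0.65) and 1 lower (the prolyl hydroxylase Egln2, -0.90) of 9. Of 16 regulators of glycolytic transcription 3 were higher and 4 lower, shares near those of all genes. Among the lower was Txnip, an inhibitor of glucose uptake, at medians of 756 and 388 CPM (-0.84, adjusted p = 0.0034).

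Markers of other cells moved with the genotype in the PC. Of 14 macrophage and monocyte markers 12 were higher in NFKBIE-ko PC, and their sum was 3999 to 5873 CPM there against 656 to 1893 CPM in NFKBIE-wt PC. The defining markers Adgre1 (2.31), Csf1r (1.41) and Lyz2 (2.45) had larger differences than most members. Of 10 genes listed for stress on handling, among them Fos, Jun and Egr1, 6 were lower (304 to 656 CPM against 572 to 4196 CPM). What induced them was not tested. Markers of T cells were higher in 9 and lower in 2 of 15, and cytotoxic and NK markers higher in 8 of 10. Granulocyte markers went the other way, with 6 of 8 lower and sums of 36.2 to 53.7 CPM in NFKBIE-ko against 168 to 485 CPM in NFKBIE-wt. Stromal and endothelial markers were higher in 2 and lower in 3 of 5. The part of these cells in the differences of the members was not tested.

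**Figure D3:**
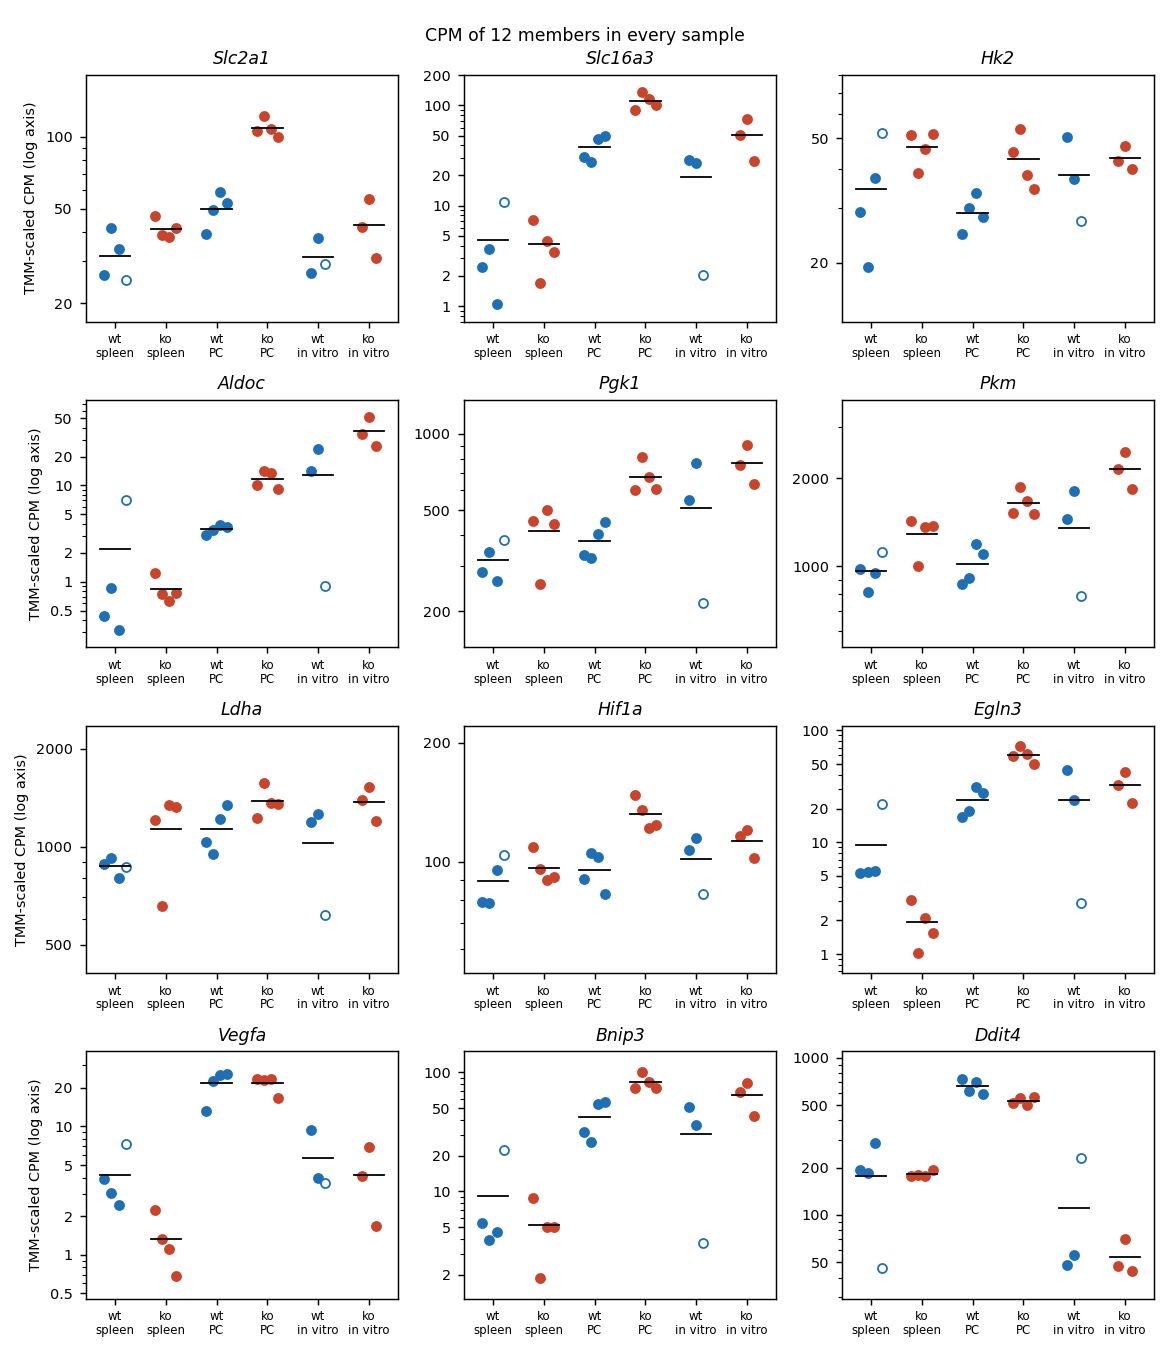
Level of selected members in each of the 22 samples in CPM on a log axis, by group, with a line at the mean of all libraries of the group and open symbols for NFKBIE-wt spleen replicate 4 and NFKBIE-wt in vitro replicate 3. For Egln3, Bnip3 and Slc16a3 the open symbol of the spleen lies above the other NFKBIE-wt spleens and that of the cultures below the other cultures.

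In the spleen few members separated the genotypes. One of 33 members tested was higher in NFKBIE-ko (2.30% of all genes) and 0 were lower (3.13%), although the median log2 fold change of 0.21 was positive against -0.01 over all genes. At an unadjusted p below 0.05, 10 members were higher (10.3% of all genes) and 2 lower (12.7%), and with a log2 fold change beyond 1 none was called (1.40% and 1.59%). All NFKBIE-ko samples lay above all NFKBIE-wt samples for Slc2a3, Gpi1, Pfkl and Pfkfb4 (8.09% of all genes) and below them for Egln3 and Vegfa (8.16%). Without the library that stood apart, 9 lay above (12.9%), with Hk2, Tpi1, Pkm, Ankrd37 and P4ha1 added, and the same 2 below (13.9%). Epas1 and Ldhb were too low to be tested.

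The called member was Pfkl, the liver-type phosphofructokinase of the committed step. It was at 72.3, 67.9, 62.6 and 84.1 CPM in NFKBIE-wt and 121, 94.5, 104 and 110 CPM in NFKBIE-ko spleens (0.57, SE 0.13, adjusted p = 0.0347). For several enzymes NFKBIE-ko spleen replicate 2 was low, for example Ldha with 883, 924, 803 and 867 CPM in NFKBIE-wt and 1209, 657, 1340 and 1327 CPM in NFKBIE-ko. The log2 fold change of Ldha, 0.38 (SE 0.21, adjusted p = 0.32), came with a larger error than in the PC and was 0.38 without NFKBIE-wt spleen replicate 4 too (adjusted p = 0.336). Pgk1, at 286, 342, 264 and 383 against 455, 256, 500 and 442 CPM, showed the same low replicate (0.37, adjusted p = 0.338, and 0.475, adjusted p = 0.2, without replicate 4 of NFKBIE-wt).

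Pkm was at 979, 814, 944 and 1119 CPM in NFKBIE-wt and 1427, 1002, 1358 and 1378 CPM in NFKBIE-ko spleens, with the low replicate inside the range of NFKBIE-wt (0.415, adjusted p = 0.15). Without replicate 4 of NFKBIE-wt, at 1119 CPM, the groups did not overlap (0.50, adjusted p = 0.0745). Slc2a1 was at 26.2, 41.6, 33.8 and 25.1 against 46.3, 38.8, 38 and 41.6 CPM (0.375, adjusted p = 0.229, and 0.28 without that library). Hk2 was at 29.1, 19.4, 37.4 and 52 against 51.4, 38.6, 46.4 and 51.7 CPM (0.44, adjusted p = 0.364) and overlapped only through the NFKBIE-wt library at 52 CPM, without which its difference was 0.71 (adjusted p = 0.0648). Slc2a1 overlapped with and without that library. So did Hif1a, at 79.1, 78.5, 95.3 and 104 against 109, 95.6, 90 and 91.3 CPM (0.11, adjusted p = 0.673, and 0.20 without that library).

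For Egln3 and Bnip3 the library that stood apart changed the call or the sign. Egln3 was at 5.26, 5.38 and 5.58 CPM in NFKBIE-wt spleens 1 to 3, at 21.9 CPM in replicate 4, and at 3.03, 1.02, 2.1 and 1.56 CPM in NFKBIE-ko spleens (-2.31, SE 0.57, adjusted p = 0.0504). Without replicate 4 the difference was smaller but called (-1.48, SE 0.34, adjusted p = 0.024). Bnip3 was at 5.46, 3.88, 4.57 and 22.4 against 8.88, 1.89, 5.04 and 4.99 CPM, so that its log2 fold change of -0.81 (adjusted p = 0.488) became 0.17 without that library. Vegfa was at 3.9, 3.03, 2.46 and 7.35 against 2.22, 1.34, 1.11 and 0.685 CPM (-1.65, SE 0.47, adjusted p = 0.079). Here the NFKBIE-ko samples stayed below the NFKBIE-wt samples with or without replicate 4, and the difference was -1.22 without it (adjusted p = 0.0813).

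Without the 2 libraries 4 members were higher (5.48% of all genes) and 1 was lower (6.68%) in NFKBIE-ko spleen, with a median of 0.33. The higher ones were Pfkl (0.67, adjusted p = 0.00939), Pgam1 (0.72, adjusted p = 0.0482), Ankrd37 (1.10, adjusted p = 0.0221) and P4ha1 (0.81, adjusted p = 0.0341), and the lower one was Egln3. In this comparison cytotoxic and NK markers were higher in 6 of 9, T-cell markers higher in 5 and lower in 1 of 15, macrophage markers higher in 3 of 14 and plasma cell markers lower in 4 of 6. With all libraries, cytotoxic and NK markers were higher in 4 of 9 and plasma cell markers lower in 4 of 6. Cytotoxic and NK markers summed to 58.9 to 138 CPM in NFKBIE-ko spleens and to 1.32 to 15.6 CPM in NFKBIE-wt spleens. Their part in the values of the members was not tested.

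In vitro no member was called in either direction by edgeR (0.0341% of all genes were higher and 0% lower, 4 genes in all). At an unadjusted p below 0.05, 5 members were higher (3.46% of all genes) and 0 lower (6.13%), and DESeq2 called 2 higher, among 223 of 16607 genes that it called in either direction (1.34%). Of the 33 members tested 30 had a positive log2 fold change, with a median of 0.47 against -0.02 over all genes, and Epas1 and Ldhb were not tested. Without NFKBIE-wt in vitro replicate 3, 27 were positive and the median was 0.30. In 10 members all NFKBIE-ko cultures lay above all NFKBIE-wt cultures (9.90% of all genes) and in 0 below (9.79%). Without that replicate 10 lay above (13.6%) and 1 below (14.3%), and again 0 were called in either direction (0.0590% and 0.0169% of all genes).

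NFKBIE-wt in vitro replicate 3 widened the spread. Pkm was at 1451, 1813 and 791 CPM in NFKBIE-wt and 2162, 2473 and 1846 CPM in NFKBIE-ko cultures (0.68, SE 0.30, adjusted p = 0.519). Without replicate 3 the log2 fold change was 0.41 (adjusted p = 0.527). Pgk1, at 548, 768 and 216 against 757, 906 and 633 CPM, went from 0.58 to 0.22, and Ldha, at 1194, 1259 and 615 against 1391, 1525 and 1198 CPM, from 0.42 to 0.17. Each of these 3 enzymes thus kept a positive sign and lost size.

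Hypoxia targets and transporters were no clearer. Bnip3 was at 50.7, 36.3 and 3.67 against 68.9, 82 and 43.2 CPM (1.11, adjusted p = 0.601, and 0.58 without replicate 3). Vegfa was at 9.33, 3.95 and 3.63 against 4.09, 6.89 and 1.69 CPM (-0.41, adjusted p = 0.772, and -0.64 without replicate 3) and overlapped. Slc2a1 was at 26.7, 37.5 and 29.2 against 41.9, 55.1 and 31.1 CPM (0.45, adjusted p = 0.54, and 0.42 without replicate 3). Hk2, at 50.4, 37 and 27.2 against 42.3, 47.4 and 39.9 CPM, had a log2 fold change of 0.18 (adjusted p = 0.731) and of -0.01 without replicate 3. Hif1a, at 107, 115 and 82.6 against 116, 120 and 102 CPM, had 0.14 (adjusted p = 0.673) and 0.02 without replicate 3.

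Whether the effect of NFKBIE differed between compartments was tested as an interaction in a fit of all samples. Between spleen and PC 4 members had an effect that was lower in the spleen (2.75% of all genes) and 0 one that was higher (2.17%). Egln3 had the largest difference (-3.66, SE 0.84, adjusted p = 0.0189), since it was lower in NFKBIE-ko spleen and higher in NFKBIE-ko PC. The others were Pfkfb3 (-0.67, adjusted p = 0.0237), Egln1 (-0.64, adjusted p = 0.00999) and the glucose phosphate isomerase Gpi1 (-0.52, adjusted p = 0.0287).

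For Pfkfb3 the spleens were at 56.4, 48.5, 57.7 and 43.8 CPM in NFKBIE-wt and 57.8, 60.5, 56.5 and 62.3 CPM in NFKBIE-ko, in contrast to the clear gap in the PC. Egln1 was at 61.9, 57.4, 48.7 and 54.4 against 48.9, 49.7, 50.9 and 47 CPM in the spleens and at 61.1, 65.9, 74.5 and 72.8 against 84.5, 100, 97.3 and 94.7 CPM in the PC. Gpi1 was at 241, 226, 196 and 213 against 262, 248, 244 and 261 CPM in the spleens and at 358, 320, 363 and 360 against 570, 628, 596 and 528 CPM in the PC. Gpi1 was thus higher in the NFKBIE-ko samples of both compartments, by more in the PC. Without the 2 libraries the same 4 members were called and 0 in the other direction (4.39% and 3.86% of all genes), Egln3 at -2.82 (adjusted p = 0.000767), Pfkfb3 at -0.71, Egln1 at -0.625 and Gpi1 at -0.51.

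The effect of NFKBIE differed between spleen and culture for 0 members by edgeR (0.236% and 0.207% of all genes in the positive and negative direction), with 1 positive (10.5%) and 6 negative (5.41%) at an unadjusted p below 0.05 and 5 called by DESeq2, which called 4.68% of all genes in either direction. Between PC and culture it was higher in the PC for 2 members (3.83% of all genes) and lower for 0 (0.975%). Pfkfb3, at 51.3, 46.8 and 49.4 against 46.5, 57.1 and 41.8 CPM in vitro, differed by 0.89 (SE 0.18, adjusted p = 0.0147) and by 0.87 without the 2 libraries (adjusted p = 0.00953). The call of Epas1 rests on 1 count in all NFKBIE-ko cultures together.

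The second question was how the members differ between the PC and the spleen. In NFKBIE-wt 18 of the 35 members were higher in the PC (15.8% of all genes) and 2 were lower (19.7%), with a median log2 fold change of 0.62 against -0.04 over all 13537 genes. In NFKBIE-ko 23 were higher (25.0%) and 2 lower (26.1%), with a median of 0.93 against -0.01. All PC samples lay above all spleen samples for 16 members in NFKBIE-wt (15.7% of all genes) and 27 in NFKBIE-ko (27.1%), and below for 2 in each (15.9% and 26.1%). Without the 2 libraries the counts were 21 higher (18.7%) and 2 lower (20.1%) in NFKBIE-wt, and 28 (28.4%) and 2 (29.4%) in NFKBIE-ko, where no sample of the comparison itself was left out but the filter, the scaling and the shared spread changed. The PC samples of NFKBIE-wt then lay above the spleens for 19 members (20.1%) and below for 2 (21.1%). With a log2 fold change beyond 1 as well, 9 were higher and 0 lower in NFKBIE-wt (8.66% and 4.18%), and 15 and 1 in NFKBIE-ko (14.2% and 5.93%).

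**Figure D4:**
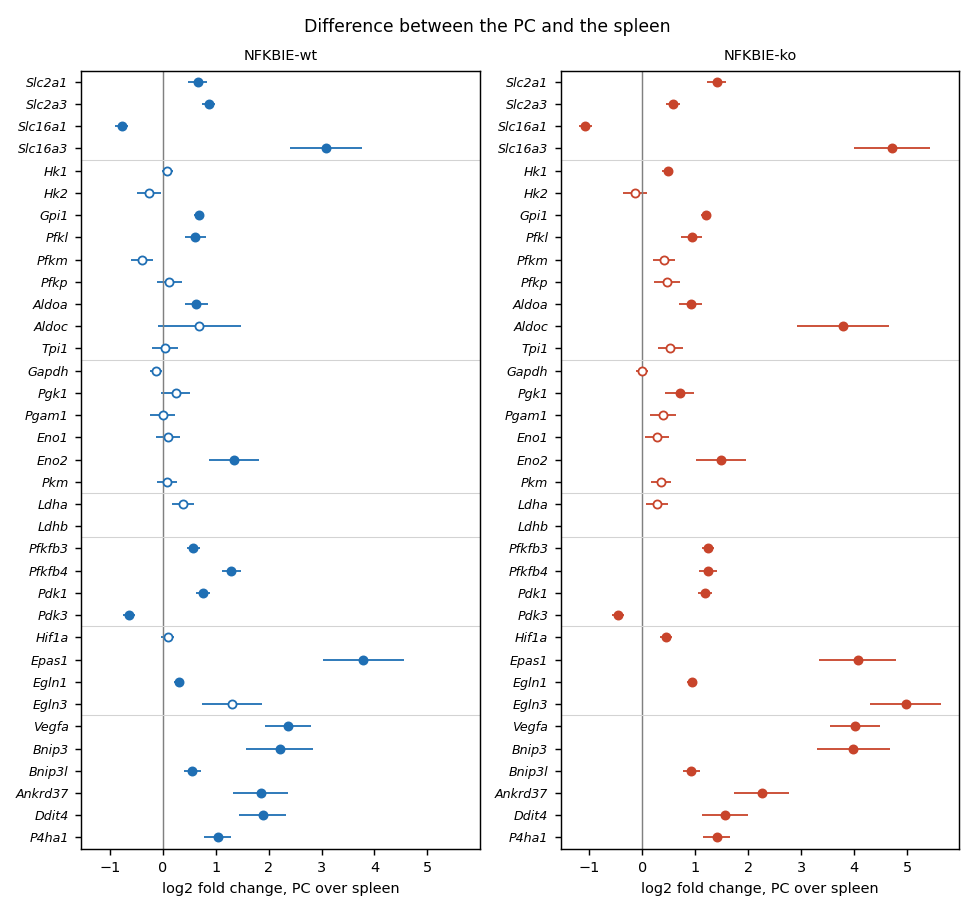
Log2 fold change of the PC against the spleen for each member in NFKBIE-wt and NFKBIE-ko, with bars of 1 standard error and filled points where the adjusted p was below 0.05. Hypoxia targets and oxygen sensing factors reach values above 2 on the log2 scale while most lower glycolytic enzymes stay near 0, and Ldhb is not drawn.

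The hypoxia targets were the role in which all 6 members were higher in the PC in both genotypes. Promoters of a pair of genes with large differences are shown to locate the HIF motif. ACGTG or GCGTG, the spelled-out forms of RCGTG, was searched on both strands in the 300 bases before the canonical GENCODE start of each gene. At least one of the forms was found in 25 of 35 members (71.4%) and in 54.2% of 14729 protein-coding genes of the table. ACGTG alone was found in 15 members (42.9% against 23.2%) and GCGTG in 21 (60.0% against 42.1%). Bnip3 (GRCm39 chr7:138511254-138511553, minus strand) had 5 overlapping or separate matches, and Egln3 (chr12:54250674-54250973, minus strand) had 1. The windows are written 5′ to 3′ on the strand of the gene, with the matched letters on either strand in capitals, and that of Bnip3 overlaps an exon of an antisense noncoding RNA.
Bnip3: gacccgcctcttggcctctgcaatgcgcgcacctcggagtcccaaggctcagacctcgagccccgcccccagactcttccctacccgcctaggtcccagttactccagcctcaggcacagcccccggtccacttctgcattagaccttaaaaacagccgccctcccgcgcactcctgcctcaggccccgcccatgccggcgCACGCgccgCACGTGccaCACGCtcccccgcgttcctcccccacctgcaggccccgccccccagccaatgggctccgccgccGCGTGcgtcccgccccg
Egln3: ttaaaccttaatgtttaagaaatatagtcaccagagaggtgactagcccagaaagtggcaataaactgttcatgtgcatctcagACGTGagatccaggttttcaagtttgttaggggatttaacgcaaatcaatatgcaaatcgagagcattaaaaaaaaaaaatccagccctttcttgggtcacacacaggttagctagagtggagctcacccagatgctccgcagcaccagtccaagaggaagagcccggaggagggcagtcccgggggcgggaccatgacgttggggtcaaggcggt
A match is a description of the letters, and binding of HIF was not measured.

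Bnip3, with the spleen and PC values given above, differed by 2.21 in NFKBIE-wt (SE 0.64, adjusted p = 0.0114) and by 3.98 in NFKBIE-ko (SE 0.69, adjusted p = 9.14e-05). Without the library that stood apart, the difference in NFKBIE-wt was 3.20 (adjusted p = 9.86e-06). Even that library, at 22.4 CPM, was below the lowest NFKBIE-wt PC sample at 26 CPM. Vegfa, at 2.46 to 7.35 CPM in NFKBIE-wt spleen and 13.2 to 25.6 CPM in NFKBIE-wt PC, differed by 2.37 (SE 0.43, adjusted p = 0.000338). Without replicate 4 of the spleen it differed by 2.80. In NFKBIE-ko, from 0.685 to 2.22 up to 16.7 to 23.6 CPM, it differed by 4.01 (SE 0.47, adjusted p = 1.28e-06).

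Ddit4 was at 192, 184, 289 and 45.7 CPM in NFKBIE-wt spleens and at 176, 180, 177 and 192 CPM in NFKBIE-ko spleens, with the library that stood apart far below the rest. The PC was higher by 1.89 in NFKBIE-wt (SE 0.45, adjusted p = 0.00297), by 1.59 without that library, and by 1.56 in NFKBIE-ko (SE 0.44, adjusted p = 0.00635). Ankrd37 (1.85 and 2.25), P4ha1 (1.04 and 1.41) and Bnip3l (0.56 and 0.93) were higher as well, also without that library in NFKBIE-wt (2.04, 1.225 and 0.50).

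Among the oxygen sensing factors, Egln3 differed by 1.31 in NFKBIE-wt (SE 0.57, adjusted p = 0.0816), where replicate 4 of the spleen lay inside the range of the PC. Without it the difference was 2.15 (SE 0.31, adjusted p = 3.42e-05). In NFKBIE-ko it was the largest of all members, 4.97 (SE 0.67, adjusted p = 7.07e-06), from 1.02 to 3.03 CPM in the spleen to 49.8 to 73.2 CPM in the PC. Epas1, at 0.442, 0.243, 0.039 and 0.0387 CPM in NFKBIE-wt spleens and 0.689, 0.355, 0.793 and 0.266 CPM in NFKBIE-ko spleens, was higher in the PC by 3.79 (adjusted p = 0.000832, and 3.47 without replicate 4) and 4.07 (adjusted p = 0.000125). Hif1a itself was not called in NFKBIE-wt (0.09, adjusted p = 0.571, and 0.19 without replicate 4) and was higher in NFKBIE-ko (0.45, adjusted p = 0.00354).

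Of the transporters 3 were higher and 1 lower in both genotypes. Slc16a3 was at 2.45, 3.72, 1.05 and 10.8 CPM in NFKBIE-wt spleens and 7.12, 1.69, 4.4 and 3.43 CPM in NFKBIE-ko spleens, all below every PC sample. The difference was 3.09 in NFKBIE-wt (SE 0.68, adjusted p = 0.0017), 4.01 without replicate 4, and 4.72 in NFKBIE-ko (SE 0.72, adjusted p = 2.58e-05). Slc2a1 was higher in the PC by 0.66 (adjusted p = 0.00676) and 1.41 (adjusted p = 2.9e-06), and Slc2a3 by 0.87 and 0.58. The lower member was Slc16a1 (MCT1), at 98.5 to 154 CPM in spleens of either genotype and 60.3 to 84 CPM in the PC (-0.775 and -1.08). Without replicate 4 the values in NFKBIE-wt were 0.58 for Slc2a1, 0.84 for Slc2a3 and -0.85 for Slc16a1, and all remained called.

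For the glycolytic enzymes the counts depended on the 2 libraries. In the upper part 3 of 9 were higher in NFKBIE-wt and 5 in NFKBIE-ko, in the lower part 1 and 2 of 6, and no lactate dehydrogenase. These counts became 5 and 8 of 9 in the upper and 1 and 4 of 6 in the lower part without the 2 libraries. Gpi1 was called in both (0.68 and 1.19), Hk2 in neither (-0.25, adjusted p = 0.42, and -0.13, adjusted p = 0.653). Pgk1 was called in NFKBIE-ko only (0.71, SE 0.27, adjusted p = 0.0369, against 0.25, adjusted p = 0.514), and the difference between the genotypes did not pass the interaction test. Pkm (0.08, adjusted p = 0.784, and 0.35, adjusted p = 0.13) and Ldha (0.39, adjusted p = 0.16, and 0.28, adjusted p = 0.272) were not called. Aldoc differed by 0.69 in NFKBIE-wt (adjusted p = 0.524), by 2.73 without replicate 4 (adjusted p = 1.18e-05) and by 3.79 in NFKBIE-ko (adjusted p = 0.00121). The other values in NFKBIE-wt without replicate 4 were 0.68 for Gpi1, 0.03 for Hk2, 0.36 for Pgk1, 0.175 for Pkm and 0.40 for Ldha, with Gpi1 the one called.

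Of the regulatory kinases Pfkfb3 (0.58 and 1.25), Pfkfb4 (1.29 and 1.24) and Pdk1 (0.76 and 1.19) were higher in the PC and Pdk3 was lower (-0.64 and -0.46). In NFKBIE-wt without replicate 4 they were at 0.53, 1.32, 0.725 and -0.56 and called as before. The transcripts behind Pfkfb3 shifted too. ENSMUST00000114846 made up a median of 37.0% and 33.1% of its counts in NFKBIE-wt and NFKBIE-ko spleen and 57.7% and 58.3% in the PC. ENSMUST00000192949 made up 52.3% and 46.7% in the spleen and 27% and 16.9% in the PC, and these shares were not tested.

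Of the further lists, other hypoxia targets were higher in the PC for 10 of 27 in NFKBIE-wt (5 lower) and 13 in NFKBIE-ko (2 lower), where 15.8% and 25.0% of all genes were higher and 19.7% and 26.1% lower. Leaving out the 2 libraries, 11 were higher and 3 lower of 28 in NFKBIE-wt, and 13 and 3 in NFKBIE-ko. The lysyl hydroxylase Plod1 (1.59 and 2.25) and the glycogen synthase Gys1 (1.05 and 2.10) were higher in both genotypes. The pentose phosphate pathway went the other way, with 0 higher and 4 lower of 7 in NFKBIE-wt and 1 higher and 5 lower in NFKBIE-ko, for example the transketolase Tkt (-0.30 and -0.57) and the transaldolase Taldo1 (-0.41 in both). Other glycolysis genes were mixed, with 3 higher and 4 lower of 12 in NFKBIE-wt (5 and 2 without the 2 libraries) and 4 and 2 in NFKBIE-ko. Pyruvate dehydrogenase genes had 1 higher and 3 lower in NFKBIE-wt and 0 and 3 in NFKBIE-ko, oxygen sensing machinery 0 higher in both with 2 and 1 lower, and regulators 5 and 6 higher with 1 and 3 lower. Txnip was higher in the PC by 1.47 and 1.05.

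Here too markers of other cells moved with the members. Of 14 macrophage and monocyte markers 13 were higher in the PC in both genotypes, with sums of 43.1 to 402 CPM in the spleens, and all 10 proliferation markers were lower in the PC (1270 to 1794 CPM against 2586 to 3946 CPM) in both. In NFKBIE-ko 8 of 10 genes of the handling list were lower in the PC as well. Erythroid markers were lower in 7 of 9 in NFKBIE-wt and 5 of 9 in NFKBIE-ko, and in all 9 of both without the 2 libraries. The part of these in the differences of the members was not tested.

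The last question was how cells in mice differ from cells in culture. In NFKBIE-wt no member was called between spleen and culture (0% of all genes in either direction), with 1 higher (2.56%) and 13 lower (5.26%) in the spleen at an unadjusted p below 0.05. All NFKBIE-wt spleens lay above all NFKBIE-wt cultures for 1 member (0.946% of all genes) and below for 0 (1.06%), and without the 2 libraries for 2 (22.7%) and 21 (18.8%). These are the groups that hold the 2 libraries that stood apart. Without them 17 members were lower in the spleen (11.5%) and 2 were higher (14.7%). In NFKBIE-ko, which holds neither, 18 were lower (13.4%) and 3 higher (16.9%), of which 8 and 2 differed by more than 1 on the log2 scale (5.20% and 8.27%). In the fit without the 2 libraries, which leaves out no NFKBIE-ko sample, 18 were lower (15.2%) and 4 higher (23.8%).

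**Figure D5:**
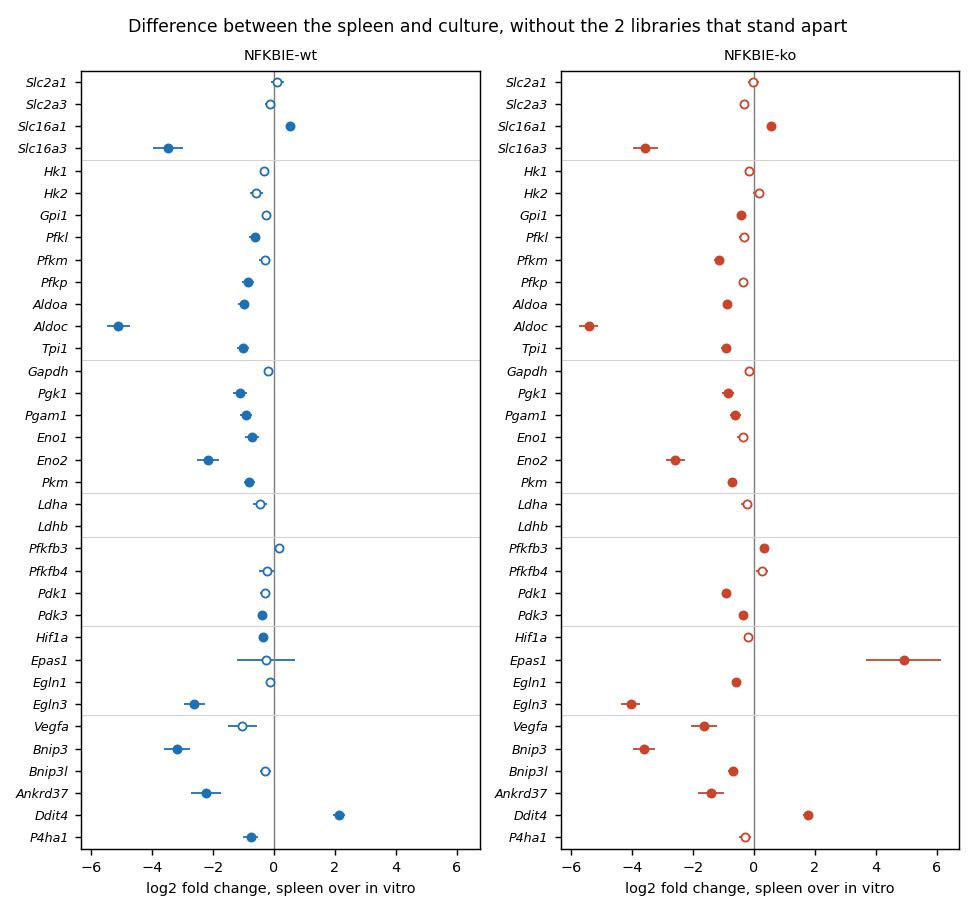
Log2 fold change of the spleen against culture for each member in NFKBIE-wt and in NFKBIE-ko, with bars of 1 standard error and filled points where the adjusted p was below 0.05. Both panels come from the fit without the 2 libraries that stood apart. Aldoc, Bnip3, Egln3 and Slc16a3 lie below -2 in both genotypes, while Ldhb is not drawn.

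Aldoc showed the largest difference. It was at 0.442, 0.85, 0.312 and 7.08 CPM in NFKBIE-wt spleens and 14, 23.9 and 0.899 CPM in NFKBIE-wt cultures, where the last value of each group belongs to the library that stood apart. Without these its log2 fold change was -5.11 (SE 0.38, adjusted p = 4.36e-08). In NFKBIE-ko it was at 1.23, 0.748, 0.635 and 0.761 CPM in the spleens and 34.6, 51.4 and 25.8 CPM in the cultures (-5.46, SE 0.93, adjusted p = 0.000788).

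Egln3 was at 44.4, 23.8 and 2.88 CPM in NFKBIE-wt and 32.8, 42.4 and 22.5 CPM in NFKBIE-ko cultures, so that it was lower in NFKBIE-ko spleen (-4.07, SE 0.67, adjusted p = 0.000613). Slc16a3 was at 28.8, 26.6 and 2.06 CPM in NFKBIE-wt and 50.7, 72.8 and 27.9 CPM in NFKBIE-ko cultures (-3.60 in NFKBIE-ko, SE 0.71, adjusted p = 0.00188). Bnip3 behaved alike (-3.64, SE 0.70, adjusted p = 0.0016). Without the 2 libraries the values in NFKBIE-wt were -2.62 for Egln3, -3.49 for Slc16a3 and -3.19 for Bnip3, with adjusted p between 2.76e-05 and 7.64e-05.

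Smaller differences in the same direction were found for Pgk1 (-0.89 in NFKBIE-ko, adjusted p = 0.0273) and Pkm (-0.74, adjusted p = 0.0109). Vegfa was lower in NFKBIE-ko spleen as well (-1.66, adjusted p = 0.0138). Slc2a1 (-0.05, adjusted p = 0.858), Hk2 (0.12, adjusted p = 0.738), Ldha (-0.28, adjusted p = 0.362) and Hif1a (-0.22, adjusted p = 0.196) were not called.

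Markers of other cells were higher in NFKBIE-ko spleen than in NFKBIE-ko culture: T cells in 12 of 15, cytotoxic and NK cells in 9 of 10, granulocytes in 8 of 9, erythroid cells in 6 of 9 and macrophages in 8 of 14 (1 lower). Genes of the handling list were higher in 9 of 10. In NFKBIE-wt no marker was called with all libraries. T-cell markers were higher there in 10 of 15 (2 lower) without the 2 libraries, granulocyte markers in 7 of 9, erythroid markers in 8 of 9 and handling genes in 9 of 10. In NFKBIE-ko culture the granulocyte markers summed to at most 0.375 CPM and the cytotoxic and NK markers to at most 2.46 CPM. The part of these in the differences of the members was not tested.

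Ddit4 and Slc16a1 went the other way. Ddit4 was at 47.4, 70.5 and 44.1 CPM in NFKBIE-ko cultures and higher in NFKBIE-ko spleens by 1.75 (SE 0.49, adjusted p = 0.0132). In NFKBIE-wt cultures it was at 47.9, 55.7 and 229 CPM, the last in the library that stood apart, and without the 2 libraries the spleen was higher by 2.13 (adjusted p = 7.86e-07). Slc16a1 was higher in the spleen by 0.53 in NFKBIE-ko (adjusted p = 0.0055) and by 0.54 in NFKBIE-wt without the 2 libraries (adjusted p = 0.00874). The third member higher in NFKBIE-ko spleen was Epas1, again against 1 count in the cultures.

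Between the PC and culture, 9 members were higher and 2 lower in the PC in NFKBIE-wt (14.4% and 19.7% of all genes), and 10 higher and 3 lower in NFKBIE-ko (24.1% and 23.9%). Without the 2 libraries the counts were 9 and 7 in NFKBIE-wt (22.9% and 20.0%) and 14 and 6 in NFKBIE-ko (28.5% and 24.5%). With a log2 fold change beyond 1 as well, 4 were higher and 0 lower in NFKBIE-wt (7.65% and 5.37%), and 7 and 0 in NFKBIE-ko (15.3% and 5.55%). Among members with at least 5 CPM in the higher group Ddit4 had the largest difference in NFKBIE-wt, 2.57 (SE 0.51, adjusted p = 0.000957; 3.71 without the 2 libraries), and was higher by 3.31 in NFKBIE-ko (SE 0.53, adjusted p = 6.01e-05). Vegfa was higher by 1.94 (adjusted p = 0.0042, and 1.76 without the 2 libraries) and 2.36 (adjusted p = 0.000548).

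The kinases and the glucose transporter followed. Pfkfb4 was at 11.9, 12, 9.76 and 9.84 CPM in NFKBIE-wt PC and 3.58, 7.06 and 5.28 CPM in the NFKBIE-wt cultures (1.035, SE 0.20, adjusted p = 0.00061, and 1.075 without replicate 3). Pdk3 was at 35, 39.8, 36.5 and 39.1 against 77, 74.8 and 52.1 CPM and was lower in the PC (-0.85, SE 0.11, adjusted p = 2.06e-05, and -0.965 without replicate 3). Pfkfb3 was higher in NFKBIE-ko PC by 1.54 (SE 0.13, adjusted p = 5.23e-08) and Slc2a1 by 1.35 (adjusted p = 1.9e-05), each with no overlap of the groups.

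Epas1 had 898 counts in the 4 NFKBIE-ko PC samples and 1 count in the 3 NFKBIE-ko cultures. The ratio of these counts, each divided by the total counts of its group without TMM scaling, was 671. Its exact 95% interval of 120 to 26533 covers counting error only. Aldoc, Bnip3, Egln3 and Slc16a3, the members with the largest gap between spleen and culture, were not called between the PC and culture in NFKBIE-ko (adjusted p = 0.089, 0.684, 0.236 and 0.18). Without the 2 libraries, neither of which belongs to these groups, Aldoc was lower in NFKBIE-ko PC (-1.64, adjusted p = 4.07e-05) while Egln3 (0.93, adjusted p = 0.00958) and Slc16a3 (1.15, adjusted p = 0.0175) were higher. Macrophage and monocyte markers were higher in the PC than in culture in 12 of 14 in NFKBIE-wt and 13 of 14 in NFKBIE-ko, and all 10 proliferation markers were lower in both. In NFKBIE-ko, T-cell markers were higher in 12 of 15 (1 lower) and cytotoxic and NK markers in all 10. Macrophage markers were higher in 13 of 14 in both genotypes without the 2 libraries. Their part in the differences of the members was not tested.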

How the data were processed

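RNA of 22 samples (6 groups of 3 or 4) had been sequenced paired-end from TruSeq mRNA libraries. Per the labels and the study's methods, the authors quantified transcripts with Salmon 1.8 on GRCm39, and they deposited a table of estimated counts (expected counts) without normalization. Salmon divides reads shared by transcripts, and 69.5% of the values were not whole. Transcripts were matched to the GENCODE annotation of the same build (62147 of 62492), summed per gene and then rounded, and the 0.619% of counts without a match were left out. The study itself tested transcripts. Depth was 24036763 to 26581304 counts per sample (median 25647258), and no replicate pair agreed within sampling noise. Intervals cover counting error only, since PCR copies were not told apart.

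Genotypes were compared within each compartment (3 comparisons), and compartments within a genotype (6 comparisons) and interactions (3) in a fit of all samples, with edgeR 4.0.16 (limma 3.58.1, R 4.3.3): low counts filtered by its default, TMM scaling and robust quasi-likelihood fits. Adjustment was by Benjamini-Hochberg over all genes tested, and called means an adjusted p below 0.05. CPM are TMM-scaled, and fold changes are log2. Per-sample values are given for up to 4 called members with the largest change (mean of 5 CPM or more in the higher group), and for Slc2a1, Hk2, Ldha, Pkm, Pgk1, Hif1a, Bnip3 and Vegfa. Of each further list up to 3 genes with the smallest adjusted p are named. Ddit4 in the PC, the splitting of Pkm, Pfkfb3 and Slc2a1 by transcript and the printed promoters were chosen after values were seen. The members and lists were chosen with earlier results of these data known. The labels give no batches. The p-values measure the spread between these samples, and samples of a genotype share the edited cells they came from. Those of the spleen and PC also share the passage through a donor mouse. The fits were also run on simulated counts with known changes, but with less spread than the spleen and culture comparisons and no outlying library. How the fits do at the spread of those comparisons was not tested.

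Sequences came from the GRCm39 genome and its GENCODE annotation, read with Python 3.11.15, and figures used matplotlib 3.10.9. The alternatives were RLE scaling, no filter and a stricter filter on low counts, DESeq2 1.42.0, 1 transcript per gene, a replicate block, other sets of samples in the fit, a log2 fold change beyond 1, the 2 libraries left out, and each library left out in turn. Flow cytometry, purified samples and patient data were not analysed here.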

Additional observations from a re-analysis of the deposited data

Results flagged for a closer look

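In groups of 4 samples, 11 of 134 sets of member values had 1 sample far from the other 3 (Dixon's test, which chance passes in about 1 in 20). Of these, 4 were the library labelled NFKBIE-wt spleen replicate 4, high for Aldoc (7.08 CPM), Eno2 (3.13 CPM), Egln3 (21.9 CPM) and Bnip3 (22.4 CPM). NFKBIE-ko spleen replicate 2 was low for Pgam1 (325 CPM), Eno1 (685 CPM) and Pkm (1002 CPM). The others were Slc2a3 in NFKBIE-ko PC replicate 1 (77.1 CPM), Gpi1 in NFKBIE-wt PC replicate 2 (320 CPM), Gapdh in NFKBIE-wt spleen replicate 1 (2676 CPM) and Vegfa in NFKBIE-ko PC replicate 4 (16.7 CPM).

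The log2 effect of NFKBIE differed between spleen and PC by the interaction test of edgeR for Gpi1 (-0.52), Pfkfb3 (-0.67), Egln1 (-0.64) and Egln3 (-3.66), lower in the spleen in each. Between PC and culture it differed for Pfkfb3 (0.89) and Epas1, whose fitted value of 6.13 rests on 1 count in the NFKBIE-ko cultures and depends on the prior count of the fit.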

How the results depend on the processing

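Counts of members that passed the test moved by more than 1.5 times under some alternatives, and no cause was tested. The number of all genes called, in either direction, moved too. Between genotypes in the spleen it was 663 of 12221, against 1630 of 16883 with DESeq2 and 90 of 12221 with the replicate block. It was 1517 of 12471 without the 2 libraries, 834 of 12450 without NFKBIE-ko spleen replicate 2 and 2120 of 13537 in the fit of all 22 samples. In the PC that fit called 3194 of 13537 against 5488 of 12642. In vitro it called 276 of 13537 and DESeq2 223 of 16607, against 4 of 11722. Higher in NFKBIE-ko spleen (1): 3 with DESeq2, 0 with the replicate block, 0 with 1 transcript per gene, 4 without the 2 libraries, 3 in a fit of all 22 samples, 0 with a log2 fold change beyond 1, and 0 to 4 with single libraries left out (4 without replicate 4 of NFKBIE-wt, and 4 without replicate 2 of NFKBIE-ko). Lower there (0): 2 with DESeq2, 1 without the 2 libraries, 2 in the fit of all 22 samples and 0 to 1 with single libraries left out. Higher in NFKBIE-ko PC (25): 16 in the fit of all 22 samples, 6 with the fold limit, 24 to 26 with single libraries left out. Lower there (1): 0 with 1 transcript per gene, with all 22 samples and with the fold limit, 1 to 2 with single libraries left out. Higher in NFKBIE-ko in vitro (0): 2 with DESeq2, 2 with all 22 samples, 0 to 2 with single libraries left out, and lower (0): 0 to 1 (1 without NFKBIE-wt in vitro replicate 2).

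PC above spleen: 9 of 18 in NFKBIE-wt and 15 of 23 in NFKBIE-ko passed the fold limit, and below it 0 of 2 and 1 of 2; with single libraries left out the higher counts were 14 to 20 and 22 to 23. Spleen above culture in NFKBIE-wt (0): 2 without the 2 libraries, 0 to 1 with single libraries left out. Below (0): 17 without the 2 libraries, 0 to 11 with single libraries left out (4 without NFKBIE-wt spleen replicate 4, 11 without NFKBIE-wt in vitro replicate 3). Leaving out these single libraries gave 477 of 13530 and 769 of 13774 calls over all genes, in either direction. In NFKBIE-ko, higher (3) 2 to 4 and lower (18) 12 to 17 with single libraries left out, the latter 10 with 1 transcript per gene and 8 with the fold limit. Over all genes, in either direction, 4104 of 13537 were called there, and 2550 to 4345 with single libraries left out. PC above culture in NFKBIE-wt (9): 4 with the fold limit, 8 to 10 with single libraries left out. Below (2): 1 with RLE, no filter, DESeq2, 1 transcript per gene or only the compared groups, 7 without the 2 libraries, 0 with the fold limit, 1 to 8 with single libraries left out. In NFKBIE-ko, higher (10) 8 to 11 and lower (3) 3 with single libraries left out, the latter 6 without the 2 libraries, 7 with only the compared groups and 0 with the fold limit. The interaction of spleen and culture (0) had 5 with DESeq2 and 0 to 3 with single libraries left out, that of spleen and PC (4) 2 to 5 and that of PC and culture (2) 0 to 3. With single libraries left out, these interactions had 5 to 696, 343 to 1069 and 53 to 1156 calls over all genes. Of all genes, 0 of 13537 were called between spleen and culture in NFKBIE-wt, and 3607 of 13758 without the 2 libraries. Between PC and culture the calls went from 4619 to 5902 in NFKBIE-wt and from 6502 to 7282 in NFKBIE-ko in these fits. With only the compared groups they were 2688 of 12571 and 8623 of 12721. Single libraries left out gave 3592 to 5441 in NFKBIE-wt and 5426 to 6049 in NFKBIE-ko.

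In no comparison did all pairs of samples with the same replicate number correlate above 0.1, and no source says what the numbers mark, so the samples were treated as unpaired. With the replicate block, PC above and below culture in NFKBIE-wt had 0 and 0 called, in NFKBIE-ko 17 and 7, and the interactions of the PC with spleen and with culture 2 and 1. Of all genes, in either direction, the block called 15 of 12571 between PC and culture in NFKBIE-wt and 7939 of 12721 in NFKBIE-ko. For these interactions it called 393 and 81 of 13537. Every sample correlated best with its own number only between spleen and culture in NFKBIE-ko (0.0354 to 0.0714).

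In the comparisons of genotypes and of the PC with the spleen, 12 values of the 8 members followed changed sign, none of them called. Bnip3 between genotypes in the spleen was 0.167 without NFKBIE-wt spleen replicate 4 or without both libraries (-1.192 to 0.167 with single libraries left out). Vegfa in the PC was 0.006, 0.069, 0.089 and 0.102 without NFKBIE-wt PC replicates 2, 3 and 4 and NFKBIE-ko PC replicate 4 (-0.177 to 0.102), and in vitro 0.142 without NFKBIE-wt in vitro replicate 1 (-0.957 to 0.142). Hk2 in vitro was -0.008 without NFKBIE-wt in vitro replicate 3 or both libraries (-0.008 to 0.416). Between PC and spleen in NFKBIE-wt, Hk2 was 0.034 without both libraries and 0.014 without spleen replicate 4 (-0.439 to 0.014), and Pkm was -0.005 without PC replicate 3 (-0.005 to 0.157). Over all members, 20 signs changed without the 2 libraries in the comparisons of genotypes and compartments and 20 in the interactions, of which 0 were called in either fit. In the spleen these include Aldoc and Slc16a3. The median of all genes between PC and culture in NFKBIE-ko moved from -0.008 to 0.114 with DESeq2. With 3 or 4 samples per group and the spread of the cultures, small differences in vitro were not detectable, and low members such as Epas1 and Ldhb were limited by their counts.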
